A study of Zea mays with 24 samples.

Results

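The genes described here peaked in the ligule region of young maize leaves while staying below a low level in the epidermis of the upper leaf side. They were chosen from the measured values. A member had a mean of at least 2 FPKM (fragments per kilobase of transcript and per 1e6 mapped fragments) in the ligule region cut through all cell layers, at least 3 times the higher of the blade and sheath means, and a mean below 1 FPKM in each of the 3 groups of adaxial L1 tissue. Of 109715 identifiers in the table, 110 met this rule. GRMZM2G079440 and GRMZM2G040911 were set aside by the rule, and neither would have met it: their means in the adaxial L1 of the ligule were 1.47 and 6.18 FPKM.

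Tissue was cut by laser from young leaves of maize (Zea mays, cultivar B73) and its polyadenylated RNA was sequenced in 24 libraries, 3 for each of 8 groups, each library pooling 5 to 6 plants. In 6 groups, wild-type primordia at stage P7 (the seventh youngest leaf) gave a rectangle 100 µm high on the preligule band, and pieces of pre-blade and pre-sheath tissue 50 µm above and below it, either through all layers (replicates 3 to 5) or from the adaxial L1 alone (replicates 1 to 3). The L1 is the outermost cell layer, and the adaxial side is the upper side of the leaf. The other 2 groups were P6 primordia, through all layers between 400 and 900 µm from the leaf base, of plants carrying lg1-R, a mutant allele of liguleless1, and of their wild-type siblings. The groups are called blade, ligule, sheath, blade L1, ligule L1, sheath L1, P6 wild type and P6 lg1-R. The study set out to find genes of the blade and sheath boundary and genes acting downstream of LG1.

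The ligule is a fringe of tissue that separates the blade from the sheath of a grass leaf. It first appears as the preligule band, a strip of small cells that divide more often than their neighbours, and the fringe itself grows mainly from the adaxial epidermis. The protein LG1 belongs to the SBP-box transcription factors and is needed for ligule and auricle to form. A transcript that is high in the band but low in the adaxial L1 would lie in the inner tissue or the abaxial (lower) epidermis. In bulk pieces such as these, fewer cells that hold a transcript and less of it per cell cannot be told apart.

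Total counts per library, in units of 1e6, ran from 19.3 to 51.3 in the ligule, from 9.97 to 52.7 in blade and sheath, from 3.82 to 32.6 in the L1 groups and from 15.0 to 41.0 in P6. The layer labels were checked with marker lists. Of 6 epidermal genes matched by name (among them ocl1, ocl3, ocl4 and ocl5, homeobox genes of the outer cell layer), 5 were higher in each L1 group than in the same region through all layers, and the list's summed level was 180 to 313 FPKM in the all-layer libraries and 456 to 988 FPKM in the L1 libraries. Of 6 symbols listed for the abaxial side, 4 matched, and 2 of these, yab9 and yab14, were not read as abaxial, since maize YABBY genes are known from the adaxial side of the primordium. Even so, yab14 was lower in the L1: its means in blade, ligule and sheath were 57.1, 6.41 and 113 FPKM, against 0.402, 0.119 and 0.928 in their L1. Of low level throughout, yab9 was higher in blade L1 (0.696 FPKM) than in blade (0.368 FPKM). The KANADI genes mwp1 and kan1, which mark the abaxial side, were both lower in the L1. Mean FPKM in blade, ligule and sheath was 6.08, 9.92 and 9.3 for mwp1, against 0.47, 0 and 3.16 in their L1. For kan1 it was 0.741, 1.23 and 0.99, against 0 in each L1 group. Of the genes listed for the adaxial side, lbl1 was higher in each L1 group. The other, rld1, was higher in ligule L1 and sheath L1 but lower in blade L1 (53.3 FPKM) than in blade (57.4 FPKM). Of 10 symbols for vascular and inner tissue only 4 matched, and they did not move together (2 lower and 1 higher in every L1 group), so the inner tissue has no marker check here.

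The reads behind the members separated them into unlike sets. Of the 110, 48 owed their ligule mean to exactly 1 count over the 3 ligule libraries and 19 to 2 to 5 counts, which makes 67 members (60.9%) with at most 5 counts. Among all 17703 genes with a ligule mean of at least 2 FPKM, 131 (0.74%) rested on so few counts. Among the 196 genes that peaked in the ligule by the same level and fold but reached 1 FPKM in the L1, 9 (4.59%) did. A further 9 members had 6 to 49 counts, and 34 had 50 or more.

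These sparsely counted members also headed the list by level, because 1 count was worth 1.33 to 486 FPKM for them (median 24.9). GRMZM2G502087, GRMZM2G516441 and GRMZM2G524059 each had 486 FPKM from 1 count in ligule replicate 3 and 0 in all the other libraries, a mean of 162 FPKM. GRMZM2G488312 and GRMZM2G540188 each had 402 FPKM from 1 count in ligule replicate 4 and none elsewhere. GRMZM5G882806 had 108, 0 and 378 FPKM in ligule replicates 3, 4 and 5 from 7 counts, but its P6 means were 118 FPKM in wild type and 267 FPKM in lg1-R, so its ligule was not its highest group. The remaining 4 of the 10 highest ligule means, GRMZM2G515563 (91.9 FPKM), GRMZM2G581036 (83.7 FPKM), GRMZM2G580005 (81.8 FPKM) and GRMZM2G568504 (63.8 FPKM), rested on 4, 3, 3 and 1 counts. GRMZM2G515563 too had a higher mean in P6 wild type, 121 FPKM. All 10 highest levels thus came from at most 7 counts, and their order by FPKM carries no more than that. Of the 67 members with at most 5 counts, 64 had no count in blade or sheath, 67 had none in the L1 and 59 had none in P6. None of the 67 was paired with a RefSeq gene.

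**Figure D1:**
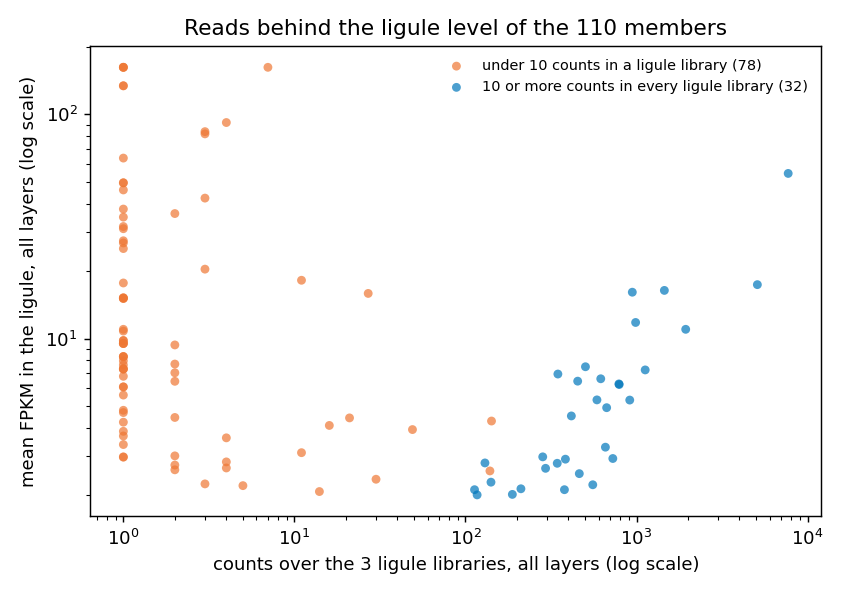
Mean FPKM in the ligule through all layers (vertical axis, log scale) against the counts summed over its 3 libraries (horizontal axis, log scale), 1 point for each of the 110 members; blue points have at least 10 counts in every ligule library. The highest means, up to 162 FPKM, stand above 1 to 7 counts, while the 32 blue points run from 2.01 to 54.5 FPKM.

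Replicate 3 of the ligule carried much of the sparse set. Counts came from a single ligule library for 69 members: replicate 3 for 39, replicate 4 for 17 and replicate 5 for 13. For 7 members that one library held at least 10 counts, and in each case it was replicate 3. The fullest of them, GRMZM2G071077, had 49 counts there and 0 in ligule replicates 4 and 5. Over the whole table, 24 identifiers had at least 10 counts in ligule replicate 3 and none in the other 23 libraries, compared with 9 for blade replicate 3 and 0 to 4 for every other library. Without ligule replicate 3 the rule gave 92 genes, of which 63 were among the 110. What sets this library apart was not tested.

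At least 10 counts in every ligule library were found for 32 members, a criterion chosen after the values were seen. These 32 are called well covered, and the results below are about them. For them 1 count was worth 0.0109 to 0.066 FPKM (median 0.0263), and 19 of the 32 were paired with a RefSeq gene. In all 32, and in none of the other 78 members, every ligule library lay above every blade and sheath library. That arrangement held for 6.86% of the 17703 genes at 2 FPKM or more in the ligule and for 6.97% of the 17292 that also had 10 counts in every ligule library. Since the rule used these libraries, the count is a description.

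The 32 stood mostly at low levels. The median of their group means was 0.443 FPKM in blade, 4.72 in ligule and 0.373 in sheath, then 0.0652 in blade L1, 0.253 in ligule L1 and 0 in sheath L1, and 0.65 in P6 wild type and 0.271 in P6 lg1-R. The ligule mean exceeded the higher neighbour by 3.17 to 138 times (median 5.06), and by 10 times or more in 11 members. Spread among the 3 ligule libraries was wide. The highest library was 1.03 to 20.6 times the lowest (median 2.12), and at least 2 times the lowest in 19 members. The highest library was replicate 3 in 14 members, replicate 4 in 11 and replicate 5 in 7, so no single library set the level of all.

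**Figure D2:**
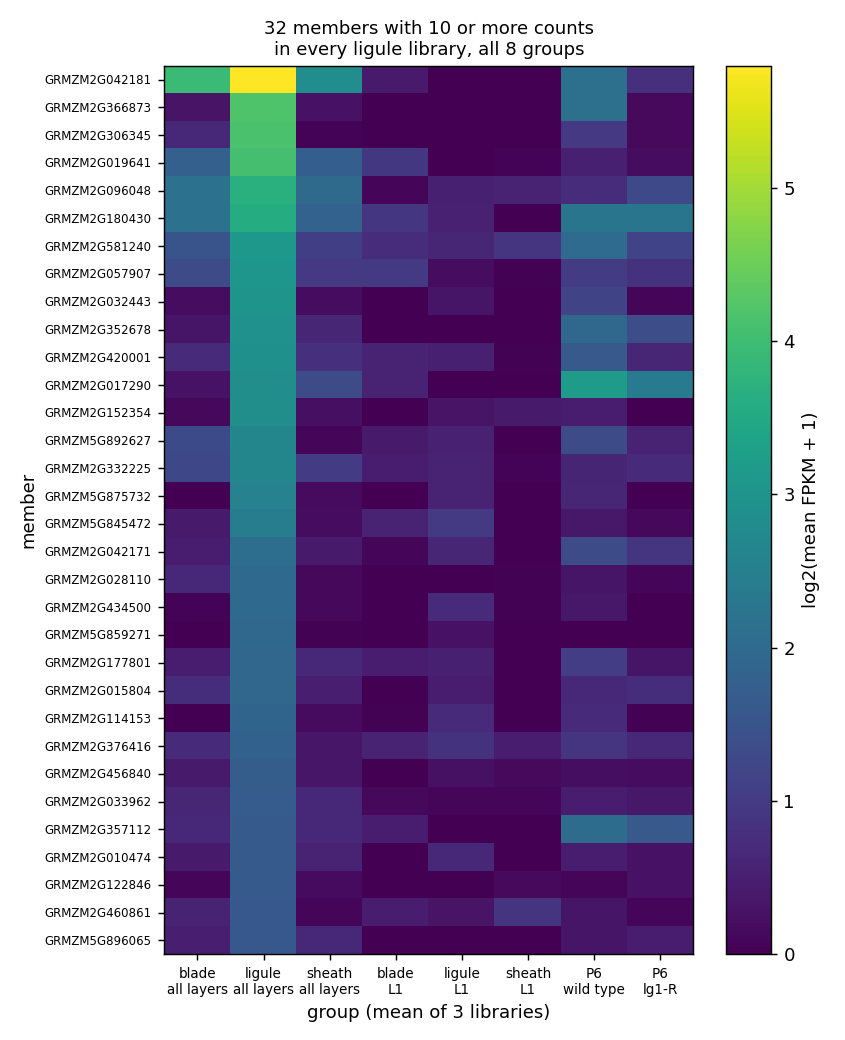
Mean level of each of the 32 well-covered members (rows, ordered by ligule mean) in the 8 groups (columns, mean of 3 libraries), as log2(mean FPKM + 1). The ligule column is the brightest in all rows except those of GRMZM2G017290 and GRMZM2G357112, whose P6 wild-type means were higher.

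GRMZM2G042181 had the highest level of the 32. Its FPKM values in replicates 3, 4 and 5 were 90.5, 34.6 and 38.2 in the ligule, 8.77, 14.8 and 19.5 in the blade and 2.41, 10.5 and 5.56 in the sheath. Means were 54.5 ± 31.3 (SD, n = 3), 14.4 ± 5.36 and 6.15 ± 4.07 FPKM, so the ligule libraries stood clear of the others while blade and sheath overlapped. In the L1 it had 21 counts in blade, 1 in ligule and 0 in sheath, against 7705 in the ligule through all layers. Scaled to library totals, the ligule through all layers exceeded ligule L1 by 2624 times, with a 95% interval of 471 to 103665 that covers counting error only. Replicates differed by more than counting error, and the rule chose on these values, so the ratio is a description.

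GRMZM2G366873 was the second highest and had the most ligule counts of the 4 well-covered members without any L1 count. The ligule libraries had 16.5, 11.2 and 24.7 FPKM, the blade libraries 0.558, 0.0711 and 0.0759 and the sheath libraries 0.0252, 0.649 and 0. The ligule held 5088 counts and the 9 L1 libraries held none, so its ligule level was at least 578 times that of ligule L1, with the floor set at 3 counts over the group. The mean of 17.4 ± 6.82 FPKM was 74.3 times that of its higher neighbour.

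GRMZM2G306345, named pdk1 in RefSeq, encodes pyruvate orthophosphate dikinase, which regenerates phosphoenolpyruvate for carbon fixation in maize leaves. It had 8.11, 8.34 and 32.8 FPKM in the ligule, 0.868, 0.255 and 0.6 in the blade and 0, 0.0863 and 0.0397 in the sheath. Replicate 5 was 4.04 times the lowest ligule library, and the mean of 16.4 ± 14.2 FPKM has an SD nearly as large as itself. All 9 L1 libraries were at 0 counts, against 1455 counts in the ligule, which is at least 165 times the level of ligule L1. Below the ligule came P6 wild type (0.96 ± 0.293 FPKM), blade (0.575 ± 0.307), P6 lg1-R (0.108 ± 0.187) and sheath (0.042 ± 0.0432), and each group overlapped with the next in this order.

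GRMZM2G042171, named sfp3, was the only other member with a name beyond a locus or clone code. Its ligule values of 3.34, 2.95 and 3.54 FPKM were among the tightest, against 0.474, 0.239 and 0.33 in blade and 0.169, 0.485 and 0.386 in sheath. Ligule L1 had 0, 0.578 and 1.01 FPKM, so the third of these libraries passed 1 FPKM although the mean of 0.529 ± 0.506 did not.

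Other members combined good coverage with different neighbours. GRMZM2G019641 had 16.6, 16.3 and 15.4 FPKM in the ligule, 2.51, 2.7 and 2.14 in the blade and 2.43, 1.18 and 3.38 in the sheath. Its transcript was counted 0 times in ligule L1 but reached 1.71, 0 and 1.07 FPKM in blade L1. GRMZM5G875732 had 4.27, 6.0 and 4.49 FPKM in the ligule and 0 in the 3 blade libraries, with 0.139, 0 and 0.225 FPKM in the sheath. Its highest L1 group was ligule L1, with 0, 0.788 and 0.688 FPKM. These 2 genes thus differed in which L1 region held what little was counted there.

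GRMZM2G152354 had 3.33, 10.6 and 4.79 FPKM in the ligule and no library above 0.222 FPKM in blade or sheath, a 34.9-fold difference of means. GRMZM2G180430 had 12.8, 10 and 10.3 FPKM in the ligule, 3.82, 3.76 and 2.88 in the blade and 3.61, 1.74 and 2.16 in the sheath, which at 3.17-fold was the smallest excess of the 32. GRMZM2G096048 (8.31, 19.1 and 7.96 FPKM) and GRMZM2G332225 (2.22, 8.16 and 5.59 FPKM) were each highest in ligule replicate 4. The lowest ligule library of GRMZM2G332225 was just above its highest blade library of 2.2 FPKM. GRMZM2G057907 had 8.53, 7.44 and 5.78 FPKM in the ligule, and GRMZM2G420001 had 4.7, 9.92 and 4.76 FPKM.

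GRMZM5G859271 had both the largest fold and the largest spread. It had 0.301, 6.2 and 2.2 FPKM in the ligule from 18, 189 and 177 counts, no count in blade and 1 in sheath. The ratio to sheath, scaled to library totals, was 154 with a 95% counting interval of 27.5 to 6106, and to blade at least 115. The rule chose on these values, and the gene is named for its large fold, so both ratios are descriptions. GRMZM5G859271 had no count in the 6 P6 libraries, the only well-covered member of which this was true.

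**Figure D3:**
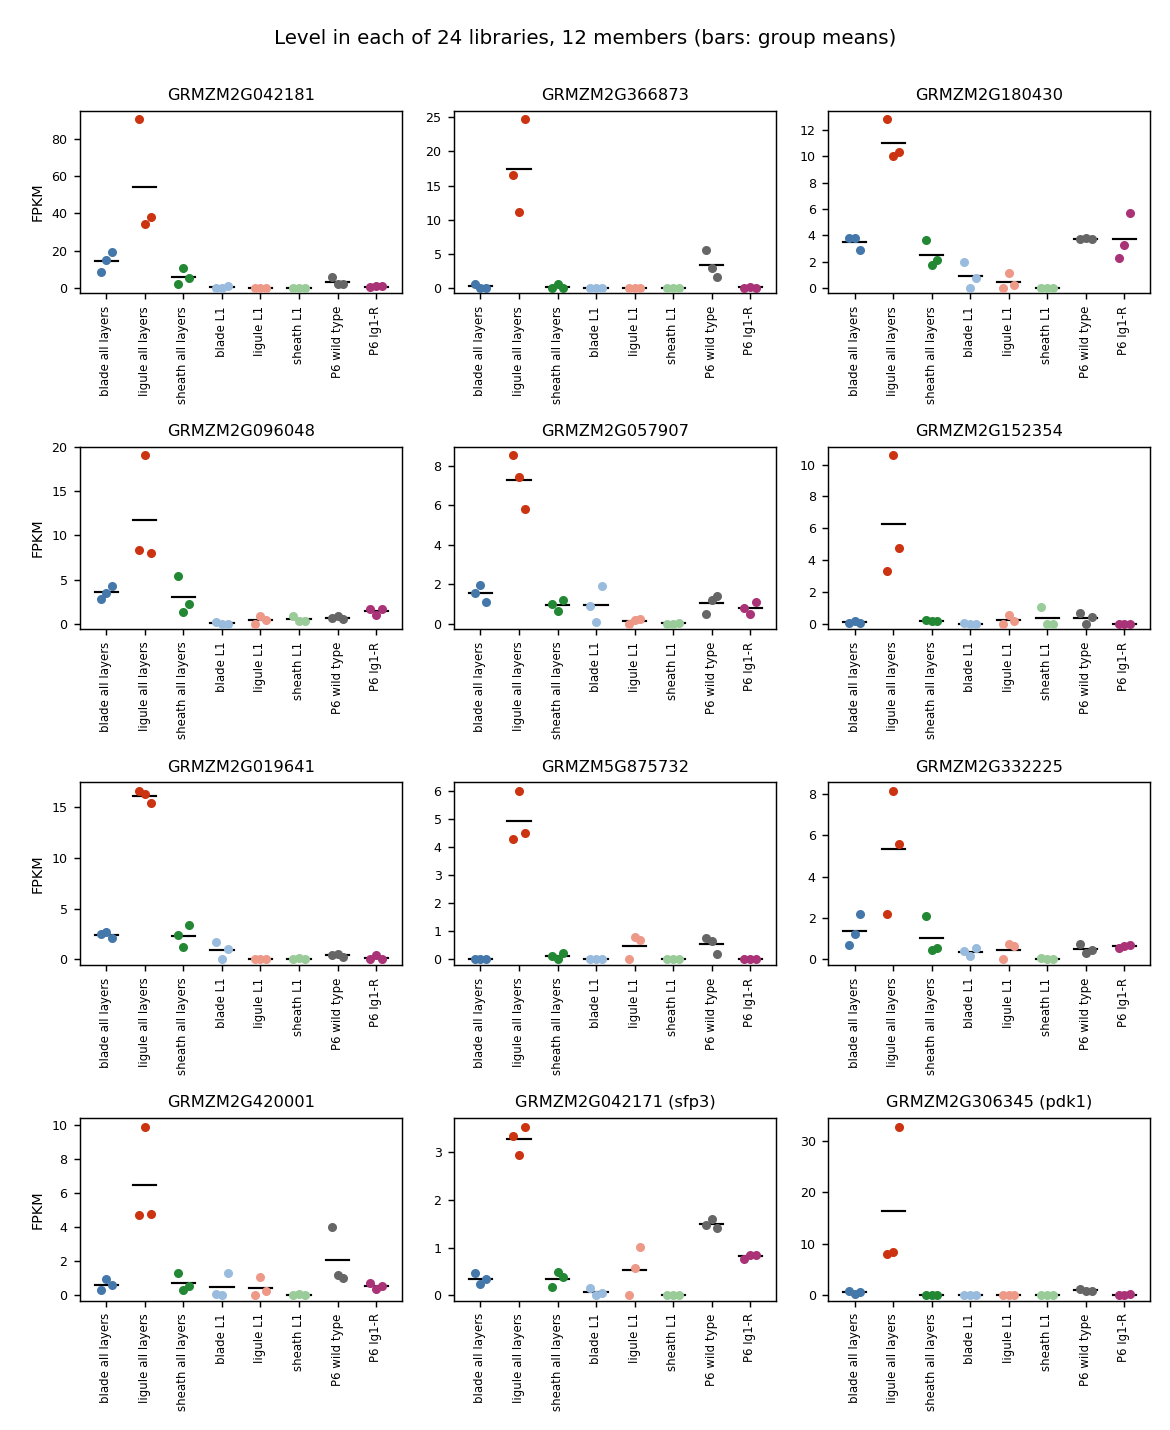
FPKM in each of the 24 libraries for the 10 members with the most counts in their lowest ligule library and for sfp3 and pdk1; points are libraries, bars are group means, and each panel has its own scale. In every panel the 3 ligule points lie above all blade and sheath points.

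Blade and sheath did not differ in a common direction. The blade mean was above the sheath mean in 17 of the 32 and below it in 15, so 53.1% leaned to the blade against 43.1% of the 17292 genes. Every blade library lay above every sheath library in 5 members (GRMZM2G028110, GRMZM2G306345, GRMZM2G376416, GRMZM2G460861 and GRMZM5G892627), where the background share was 4.76%. The reverse held for 2 members, GRMZM2G017290 and GRMZM2G122846, where the background share was 8.05%. In the others the blade and sheath libraries overlapped.

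Low in the adaxial L1 did not mean absent from it. Of the 32 members, 28 had at least 1 count in the L1 and 4 had none: GRMZM2G306345, GRMZM2G352678, GRMZM2G366873 and GRMZM5G896065. There were 0 counts in blade L1 for 13 members, in ligule L1 for 9 and in sheath L1 for 18. A group mean between 0.5 and 1 FPKM occurred in 11 members. Among the 28 with counts, the highest L1 group by mean FPKM was ligule L1 in 14, blade L1 in 8 and sheath L1 in 6. A few counts in a shallow library can set this order. GRMZM2G177801, for example, had 3 counts in ligule L1 (0.413 FPKM) and 11 in blade L1 (0.354 FPKM). No share over all genes was taken, so the order is not read as a pattern of the members. For the whole set the ligule through all layers exceeded ligule L1, in counts scaled to library totals, by a median of 19.0 times and by 2.72 times at the least, with members at 0 counts taken at their lower bound. The name "absent from adaxial epidermis" therefore holds for these counts only as a level below 1 FPKM.

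Detection in the L1 moved with the library. Of the 32 members, 18, 7 and 15 had a count in blade L1 replicates 1 to 3, 2, 20 and 22 in ligule L1 replicates 1 to 3, and 7 in each sheath L1 replicate. Ligule L1 replicate 1 thus stood apart, with a total of 11.3 (in units of 1e6 counts), from replicates 2 and 3 with totals of 3.82 and 21.9. The same library held counts for 40.8% of 884 genes, against 70.8% and 85.6% in replicates 2 and 3. The 884 were those of the 17292 background genes with a ligule L1 mean above 0 and below 1 FPKM. Members were not removed from them. GRMZM2G376416 was the only member with counts in all 3 ligule L1 libraries (0.3, 0.886 and 1.19 FPKM). Without ligule L1 replicate 1, the rule gave 111 members, 108 of them among the 110, and 32 well-covered ones. The abaxial markers mwp1 and kan1 were at 0 FPKM in the 3 ligule L1 libraries, and mwp1 reached 9.49 FPKM in sheath L1 replicate 1. The part of abaxial tissue in the members' sheath L1 counts was not tested.

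**Figure D4:**
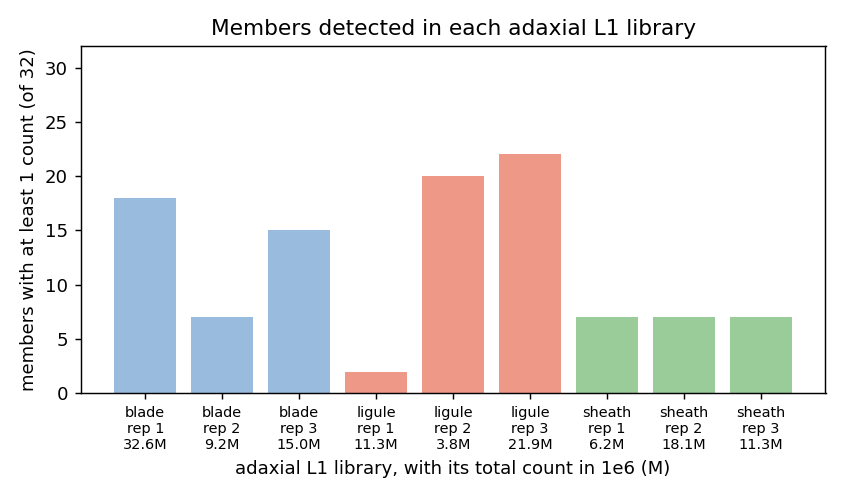
Number of the 32 well-covered members with at least 1 count (bars, vertical axis) in each adaxial L1 library, whose total count in units of 1e6 is printed below it. Ligule L1 replicate 1 detected 2 members, replicates 2 and 3 detected 20 and 22, and each sheath L1 library detected 7.

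Several members lay close to a limit of the rule. Nearest the ligule minimum were GRMZM5G896065 (2.01 FPKM), GRMZM2G460861 (2.02 FPKM) and GRMZM2G548542 (2.08 FPKM) inside, and GRMZM2G530256 (1.99 FPKM), GRMZM2G105330 (1.93 FPKM) and GRMZM2G517083 (1.91 FPKM) outside. By fold over the higher neighbour, GRMZM2G007909 (3.01), GRMZM2G180430 (3.17) and GRMZM2G096048 (3.31) were just inside and GRMZM2G153176 (2.94), GRMZM2G159581 (2.88) and GRMZM2G161459 (2.84) just outside. By the highest L1 mean, GRMZM5G845472 (0.979 FPKM), GRMZM2G057907 (0.964 FPKM) and GRMZM2G019641 (0.927 FPKM) were just inside. GRMZM2G399072 (1.002 FPKM), GRMZM5G848138 (1.014 FPKM) and GRMZM2G452896 (1.151 FPKM) were just outside.

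The well-known ligule genes were not among the members. Of 26 symbols for ligule and boundary genes, 21 matched a gene and 0 of these were members. By level and fold, 6 of the 21 peaked in the ligule, and all 6 reached 1 FPKM in ligule L1. They include lg1 (6.08 FPKM in ligule and 8.7 in ligule L1), ns1, a WUSCHEL-related homeobox gene of the leaf margin (2.51 and 18.6 FPKM), and tga1, an SBP-box gene like lg1 (13.7 and 14.0 FPKM). Also among the 6, MADS34 was lower in ligule L1 (12.3 FPKM) than in ligule (22.6 FPKM). None of the matched genes of the other lists was a member either: 6 of 9 epidermal symbols, 4 of 10 vascular, 4 of 6 abaxial, 2 of 2 adaxial and 7 of 16 for auxin transport and synthesis were matched.

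The P6 libraries were not used by the rule, so only there were members tested. The lg1 transcript itself did not separate the genotypes: it had 23, 41 and 37 counts in wild type and 39, 31 and 138 in lg1-R (log2 fold change 0.89, SE 0.43, edgeR adjusted p = 0.78, from the quasi-likelihood test and adjusted by Benjamini-Hochberg over all genes tested). Its level therefore gives no check of the genotype labels.

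Most well-covered members had lower means in lg1-R, although none of the 19 that edgeR tested passed. The mean FPKM was lower in lg1-R than in wild type in 26 of the 32 and higher in 5, with GRMZM5G859271 at 0 in both, and it was lower by 2-fold or more in 17. A mean of at least 1 FPKM was reached by 13 members in wild type and 6 in lg1-R. No share over all genes was taken for these counts, so they do not show whether the members are unusual. The levels were also low, with medians of 0.65 FPKM in P6 wild type and 0.271 FPKM in P6 lg1-R. Every wild-type library lay above every lg1-R library in 13 of the 32, against 6.91% of the 17282 such genes with P6 counts, and the reverse held in 1, against 2.71%. These shares were not taken for the other genes that peaked in the ligule. Of 147 of those tested, 117 had a log2 fold change below 0, so the arrangement is not read as particular to the members.

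With edgeR, 21249 genes had enough P6 counts to be tested, and these included 20 of the 110 members: 19 of the well-covered 32 and GRMZM2G007909. The other 90 members did not reach the test's count cutoff in 3 P6 libraries, and 66 of them had no P6 count at all. At an adjusted p below 0.05, 0 members were called, against 0% of all genes tested called lower and 0.00471% called higher (1 gene). At an unadjusted p below 0.05, 10 of the 20 were lower and 1 was higher, where 2.86% of all genes were lower and 3.73% higher. The genes that peaked in the ligule but reached 1 FPKM in the L1 leaned the same way. Of 147 such genes tested, 60 were lower and 1 was higher. Their median log2 fold change was -0.62, against -0.79 for the 20 members, so the lean to lower values was not particular to the members. The count cutoff had to be reached in 3 of the 6 libraries, whichever their genotype. Of the 20 members, 9 reached it in all 3 wild-type libraries but in fewer lg1-R libraries. Of the 10 lower members, 8 are among these 9. The reverse was true of 0 members. Among the 9 that reached it in all 6 libraries, 2 were lower and 1 was higher at an unadjusted p below 0.05. Those 9 leave out members with very few lg1-R counts, so they cannot decide on a common direction. The count over the 20 rests mostly on members that passed through their wild-type libraries, and it is not taken as support for a common direction.

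Other fits called more. DESeq2 called 2 members (0.697% of all genes), edgeR with no filter 9 (1.39%), limma on log2(FPKM + 0.1) 1 (0.0309%) and edgeR with a replicate block 1 (0.0188%). Of the 21 ligule and boundary genes, 14 were tested: 0 were called by edgeR, and 2 were lower and 0 higher at an unadjusted p below 0.05.

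GRMZM2G366873 had the largest difference. It had 463, 114 and 98 counts in wild type and 3, 8 and 5 in lg1-R, or 5.6, 2.95 and 1.59 against 0.0737, 0.22 and 0.0505 FPKM. Each wild-type library was above every lg1-R library. The log2 fold change was -5.03 (SE 0.65) with an adjusted p of 0.082 in edgeR. Over the 14 settings in which it was tested it kept this direction (log2 fold change -5.82 to -1.87) with an adjusted p from 1.4e-27 to 0.46, and it passed 0.05 in 5 of them: DESeq2, no filter, limma on log2(FPKM + 0.1), the replicate block and the fit without wild-type replicate 3.

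Next by p were 2 members with few counts. GRMZM2G032443 had 18, 8 and 13 counts in wild type and 0, 0 and 3 in lg1-R (log2 fold change -3.53, SE 0.77, edgeR adjusted p = 0.23). GRMZM2G434500 had 32, 8 and 13 counts and 0, 0 and 4 (-3.56, SE 0.79, edgeR adjusted p = 0.24). Their groups did not overlap, but 2 of the 3 lg1-R libraries were empty for both.

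GRMZM2G042181, the most abundant of the 32, had 5.98, 2.37 and 1.94 FPKM in wild type and 0.327, 0.89 and 1.05 in lg1-R, with no overlap (log2 fold change -2.12, SE 0.52, edgeR adjusted p = 0.32). DESeq2 and the fit with no filter called it. For pdk1 (GRMZM2G306345) the values were 1.29, 0.735 and 0.854 FPKM against 0, 0 and 0.324 (-2.58, SE 0.77, edgeR adjusted p = 0.44). For sfp3 (GRMZM2G042171) they were 1.48, 1.59 and 1.41 FPKM against 0.756, 0.846 and 0.854, again with no overlap but a smaller difference (-0.78, SE 0.3, edgeR adjusted p = 0.66). GRMZM5G892627, GRMZM2G420001 and GRMZM2G581240 also did not overlap between genotypes, with log2 fold changes of -1.59, -1.88 and -1.19 and edgeR adjusted p-values of 0.43, 0.53 and 0.58.

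In the other direction, GRMZM2G096048 had 0.647, 0.829 and 0.559 FPKM in wild type and 1.69, 0.948 and 1.68 in lg1-R, with no overlap (log2 fold change 1.2, SE 0.41, edgeR adjusted p = 0.56). GRMZM2G180430 had nearly equal means, with 3.7, 3.81 and 3.7 FPKM against 2.25, 3.26 and 5.68 (log2 fold change 0.08, SE 0.29). Among the members that reached the cutoff in only 2 libraries, both wild type, GRMZM5G875732 had 34, 14 and 7 counts in wild type and 0, 0 and 1 in lg1-R, GRMZM2G114153 had 26, 14 and 6 against 0, 1 and 0, and GRMZM2G152354 had 31, 0 and 15 against 0, 0 and 0. With no filter on low counts, where 1.39% of all genes were called, edgeR called these 3.

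**Figure D5:**
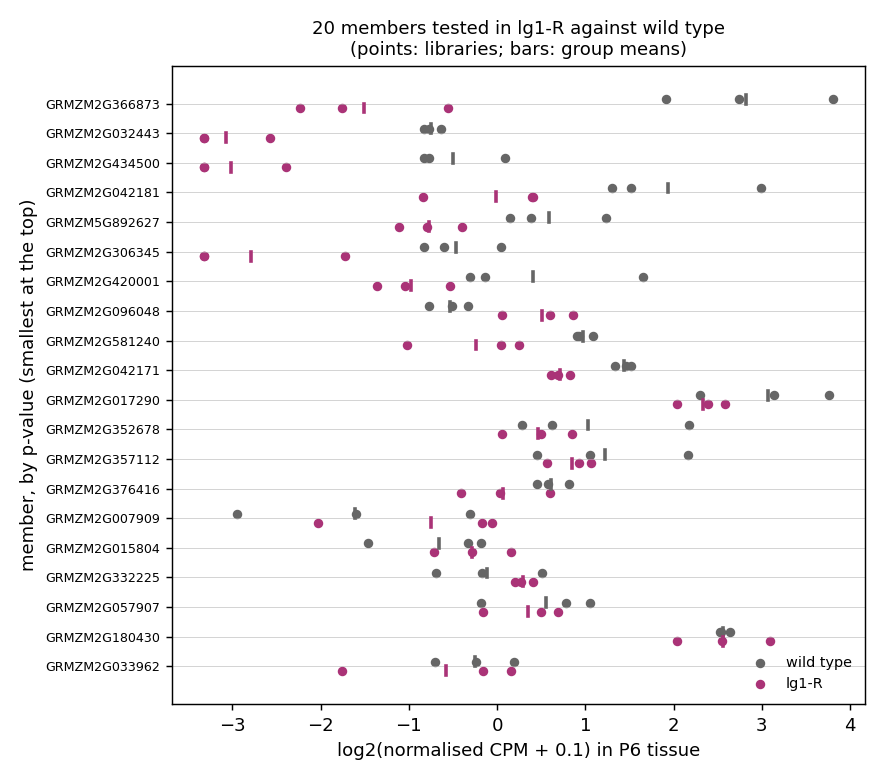
Level of the 20 tested members in each P6 library, as log2(normalised CPM + 0.1), with wild type in grey and lg1-R in purple; bars are group means and members are ordered by p. The groups do not overlap in the upper 10 members, of which 9 were lower and GRMZM2G096048 was higher in lg1-R.

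By position in the reference, 2 of the 20 members paired with a RefSeq gene, GRMZM2G010474 and GRMZM2G114153, lie on the chromosome that carries lg1, and 0 pairs of members lie within 3 places of each other in the gene order. GRMZM2G366873, GRMZM2G032443, GRMZM2G434500 and GRMZM2G042181, the tested members with the lowest p, lie on others. GRMZM2G114153 had too few P6 counts for the edgeR test, but the fit with no filter called it (46 counts in wild type, 1 in lg1-R). Members not paired with a RefSeq gene, among them GRMZM5G892627, GRMZM2G420001 and GRMZM2G581240, have no position here. No share over all genes was taken, and linkage to lg1 was not tested.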

How the data were processed

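The authors deposited expected counts and FPKM as 2 gene tables, each with 109715 identifiers and a column for each of 24 libraries. The FPKM were used as deposited for the rule and all levels, and the expected counts for depth and tests, rounded first (0.274% to 0.601% of values per library were not whole). Per the submitters' processing notes, TopHat2 2.0.10 and Cuffdiff 2.1.1 were used, and nothing read here gives their roles, the genome build, the annotation or the strandedness. Per the labels' protocols, RNA went through 2 rounds of linear amplification, so counting intervals (95%) leave out most of the spread. Antisense partners and near-identical copies of a gene cannot be told apart in such counts.

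Library totals lay between 3818649 and 52731783 counts, and 3 counts, the floor used here, come to 0.0569 to 0.786 CPM. Replicate pairs differed by more than counting error (chi-square per degree of freedom 11.6 to 142 over 24 pairs). The labels do not say whether libraries with the same number share plants. The p-values set the difference between genotypes against the spread between these pooled libraries.

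The members and the gene lists were chosen with earlier results of these data known. Values of the P7 groups chose the members, so they carry no test. P6 lg1-R was compared with P6 wild type by edgeR 4.0.16 in R 4.3.3 (quasi-likelihood, robust, TMM; filterByExpr at a minimum count of 10 and minimum total count of 15), with Benjamini-Hochberg adjustment over all genes and a threshold of 0.05, after the script was tested on simulated data. The alternatives were RLE factors, DESeq2 1.42.0, no filter, limma-trend 3.58.1 on log2(FPKM + 1) or log2(FPKM + 0.1) for genes at 1 FPKM in 3 libraries, a replicate block, all 24 libraries, each library left out, and other limits of the rule. Genes named were members called in lg1-R (none), members with a name beyond a locus or clone code, the 10 with the highest ligule mean, the 10 with the most counts in their lowest ligule library, and the 3 nearest each limit. Others named were chosen after their values were seen. Names came from RefSeq (assembly Zm-B73-REFERENCE-NAM-5.0): 18259 identifiers, 20 of them members, matched a single gene. No sequence is shown, and promoter motifs were not analysed here.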

Additional observations from a re-analysis of the deposited data

How the results depend on the processing

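The number of members, 110, rose to 195 with a ligule mean of at least 1 FPKM. It fell to 72 (30 of them among the 110) with medians in place of means, to 32 where every ligule library had to lie above every blade and sheath library, and, added after the data were seen, to 32 with 10 counts in every ligule library and 42 with 10 counts over the 3 libraries. Leaving out single libraries gave 92 to 127. The 32 well-covered members became 63 and 17 with a ligule mean of at least 1 or 4 FPKM, 71 and 16 at 2-fold or 5-fold, 21 and 51 with the L1 below 0.5 or 2 FPKM, and 30 to 42 without single libraries.

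In lg1-R, edgeR called 1 gene. DESeq2 called 148, no filter 482, limma 9 on log2(FPKM + 1), 6 on log2(FPKM + 0.1) and 0 on log2(FPKM + 1) with no filter, and the fit of all 24 libraries 0. Without single libraries the count was 0 to 58, with 58 without wild-type replicate 3 and 43 without lg1-R replicate 3. Of the members, 0 in the edgeR fit, DESeq2 called 2, no filter 9 and limma on log2(FPKM + 0.1) 1, and fits without single libraries 0 to 2 (GRMZM2G366873 and GRMZM5G875732 without wild-type replicate 3). The 10 members lower at an unadjusted p below 0.05 were 5 without wild-type replicate 1 and 6 with limma on log2(FPKM + 0.1). The cause of these differences was not tested. For the 11 members with an unadjusted p below 0.05, the log2 fold change kept its sign in each setting that gave an adjusted p, and other members were not followed singly. Same-numbered P6 libraries did not visibly deviate together (correlations 0.04, 0.01 and -0.18 over 21249 genes). Pairs with unlike numbers ran from -0.18 to 0.22. With so few libraries in each group, this check cannot exclude that the numbers pair them. A replicate block gave 4 genes and 1 member, GRMZM2G366873.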

Other observations

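The same rule with another region as the peak gave 43 genes for the blade and 73 for the sheath. At most 5 counts over the 3 libraries of the peak region stood behind 31 and 51 of them, and 10 and 9 had at least 10 counts in every library of that region. Most genes chosen by FPKM in this way were thus sparsely counted in the 3 regions alike, and the ligule had the most well-covered ones, 32. A limit in counts depends on depth, which was unlike. In units of 1e6, totals were 9.97 to 17.3 in sheath, 19.3 to 51.3 in ligule and 21.7 to 52.7 in blade. The part of depth in these numbers was not tested.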
